A study of Sus scrofa with 24 samples.

Results

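The glycolytic enzymes of muscle were followed through the mRNA of 10 genes: PGAM2, PGAM1, GAPDH, ENO3, ENO1, ALDOA, PFKM, PGK1, TPI1 and GPI. They were picked by gene symbol, with earlier results of these data known. Every probe set that carried one of these symbols was taken, which gave 24 of the 47845 probe sets on the array. The samples were longissimus dorsi muscle (LDM) of 24 pig fetuses at 63 days post conception (dpc), from an F2 cross of German Landrace (DL) and Pietrain (Pi), with 1 array per fetus. The study set fetuses with intrauterine growth restriction (IUGR) against littermates of appropriate weight for gestational age (AGA), and lists weight group, sex and dam by fetus number. Groups were taken here only from the deposited labels, which put no fetus in either group, so that listing was not used and weight groups were not compared. All fetuses shared the cross, the age and the muscle, and the labels give no treatment. By the study's methods they came from 1 F1 sire and the dams of 8 families and were picked at the extremes of fetal weight. Littermates are therefore not independent, and the spread over fetuses can include differences by weight, sex and litter. The study reported many genes that differed between its weight groups, with PGAM2 among those lower in IUGR fetuses. How much of the spread seen here goes with weight group was not tested. Each fetus was measured on 1 array, and its technical error is not known. In these pieces of whole muscle, fewer cells of a type and less RNA per cell cannot be told apart.

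Glycolysis breaks glucose down to pyruvate in the cytosol and yields ATP without oxygen. Muscle draws on it during fast contraction, and fast-twitch fibres carry more of its enzymes than slow-twitch fibres. Several steps have a form found mainly in muscle beside a form found in most tissues: PGAM2 and PGAM1 are the muscle and the widespread phosphoglycerate mutase, and ENO3 and ENO1 the muscle and the widespread enolase. As muscle matures, the muscle forms take over from the widespread ones. GAPDH is also much used as a reference gene for qPCR.

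The study measured PGAM2 a further time by qPCR, with the primer pair shown here because it marks the transcript of the muscle form. The qPCR values are not analysed here.
PGAM2 forward: tggatgagaagcacccctac
PGAM2 reverse: ctcttgcctgccttgatctg

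The arrays were alike in overall signal, with medians from 6.61 to 6.73 on the log2 scale. Over the 9710 genes that passed the filter on low values, each array's median correlation with the other arrays ran from 0.946 to 0.980. Fetus 338 had the lowest of these median correlations, and no array repeated another. Of 11 skeletal muscle markers, 8 were measured (ACTA1, CKM, DES, MYOD1, MYLPF, TTN, NEB and RYR1) and all passed the filter on low values. Of these, 7 were brighter than the brightest class of background controls, and MYOG, MYH3 and MYH8 were not matched to a probe set here. Background controls are probe sets that match no transcript, and the brightest class, with 24 G or C bases, had a median of 9.70. Of the 9710 genes that passed the filter on low values, 1288 (13.26%) had a median above it.

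All 10 glycolytic genes passed the filter, through 18 of their 24 probe sets. The filter asked only for a signal above the array's median in at least 80% of arrays. By their median signal 7 of the 10 genes also lay above the brightest background class, namely PGAM2, GAPDH, ENO3, ENO1, PGK1, TPI1 and GPI. PGAM1, ALDOA and PFKM lay below it, and their values can hold more unspecific signal. Where a gene had several probe sets, the one of highest median represented it. Signals of different probe sets are not levels that can be set against each other, so each gene was followed across fetuses. Spread is given as the span, the distance from the 10th to the 90th percentile of the 24 fetuses in log2 units.

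GPI, which turns glucose 6-phosphate into fructose 6-phosphate, had a lowest signal of 11.36 in fetus 338, a median of 11.84 and a highest signal of 11.96 in fetus 313 (log2). Its span was 0.33, a 1.26-fold range, and the low fetuses stood farther from the median than the high ones. PFKM, the muscle form of the phosphofructokinase that commits sugar to glycolysis, ran from 7.56 in fetus 376 through a median of 8.04 to 8.67 in fetus 307. On the representing probe sets it had the widest span of the 10 genes, 0.61 or 1.53-fold, wider than that of 82.9% of all genes tested. With probe sets averaged within a gene PGAM2 came just above it, at 0.62. Fetuses 307 and 377 (8.67 and 8.62) stood above all others in PFKM, the next being fetus 297 at 8.41. ALDOA, the aldolase that splits fructose 1,6-bisphosphate, ran from 7.60 in fetus 338 through 7.73 to 7.85 in fetus 352, and its span of 0.19 was narrower than that of nearly every gene tested (percentile 0.546). TPI1, which interconverts the triose phosphates made by aldolase, ran from 10.66 in fetus 376 through 11.15 to 11.39 in fetus 272, with a span of 0.38.

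The later steps begin with GAPDH, which oxidizes glyceraldehyde 3-phosphate and passes electrons to NAD. GAPDH was the brightest and the narrowest of the 10 genes, with a lowest signal of 13.42 in fetus 376, a median of 13.55 and a highest of 13.62 in fetus 324. Its span of 0.14 (1.11-fold) was wider than that of 1 gene among the 9710. Bright genes had narrow spans in general, since the 27 genes with a median of at least 13 had a median span of 0.23, against 0.42 over all genes. PGK1, the kinase that makes the first ATP of the pathway, ran from 10.86 in fetus 360 through 11.03 to 11.45 in fetus 283, with a span of 0.37.

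PGAM2, which moves the phosphate group within phosphoglycerate, ran from 10.99 in fetuses 376 and 320 through a median of 11.32 to 11.76 in fetus 272. The values filled this range without a gap, and the span of 0.56 (1.47-fold) was wider than that of 77.5% of all genes. The widespread mutase PGAM1 also had its lowest signal in fetus 376 and its highest in fetus 272, at 8.26 and 9.14 around a median of 8.76, with a span of 0.48. ENO3, the muscle enolase that makes phosphoenolpyruvate, showed the same extremes, 10.45 in fetus 376 and 11.38 in fetus 272 around 10.89, with a span of 0.44. The widespread enolase ENO1 ran from 10.42 in fetus 376 through 10.84 to 11.14 in fetus 313, with a span of 0.38. Over the 10 genes the median span was 0.38 (1.30-fold), with 4 genes (PFKM, PGAM2, PGAM1 and ENO3) above and 6 below the median of 0.42 (1.34-fold) over all genes tested.

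**Figure D1:**
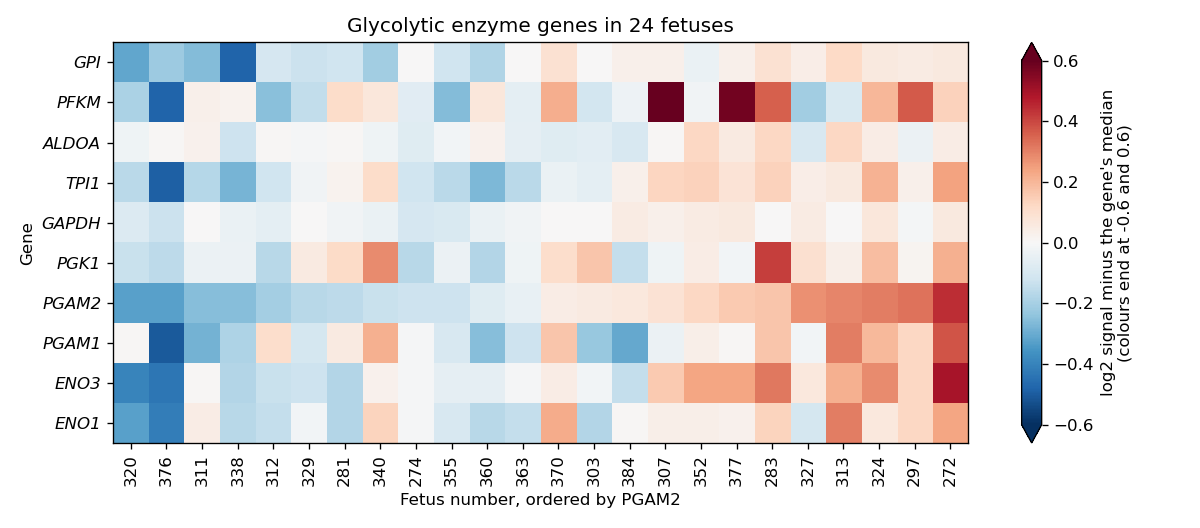
Log2 signal of the 10 glycolytic genes, each minus its median over 24 fetuses, with genes in pathway order as rows and fetuses, ordered by PGAM2, as columns. Fetus 376 was lowest in 7 of the 10 genes and fetus 272 highest in 4, while GAPDH and ALDOA stayed close to 0 throughout.

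The same fetuses returned at the ends of several genes. Fetus 376 was lowest in 7 of the 10, all but ALDOA, PGK1 and GPI, and among the lowest 6 fetuses in 9. At the other end, fetus 272 was highest in 4 genes, PGAM2, PGAM1, ENO3 and TPI1, and among the highest 6 in 9, as were fetuses 283 and 324. Fetuses 320 and 338 were among the lowest 6 in 7 genes. In all, 6 fetuses lay below the median in at least 9 of the 10 genes and 5 lay above it in at least 9.

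Of the 10 genes, 5 were read by several probe sets, so that their pattern over fetuses could be checked within a gene. All 8 further probe sets that passed the filter correlated positively with the representing one, with Pearson's r from 0.414 to 0.930. The 6 that failed it gave r from -0.456 to 0.568, and only that of ALDOA was positive. The closest match was that of PGAM2, whose other probe set ran from 10.30 in fetus 320 through 10.94 to 11.46 in fetus 272 (r = 0.930, rho = 0.949, permutation p = 1e-05, the smallest that 100000 permutations can give, and r = 0.925 when the 2 most extreme fetuses were left out). On that probe set PGAM2 had a span of 0.70, against 0.56 on the brighter one. Both probe sets thus put fetus 272 at the top. GPI gave r of 0.703 and 0.914 between its representing probe set and the other 2 that passed. PGK1 had 9 probe sets, and for the 5 further ones that passed r lay between 0.414 and 0.817. Its 3 dim ones gave r from -0.456 to -0.192, and the 2 dimmest had spans of 2.32 and 1.75, so they are no measure of PGK1. The dim GAPDH probe set, with a median of 4.18, gave r = -0.241. By their IDs, 7 of the 24 probe sets (both of PGAM2, that of PGAM1 and 4 of PGK1) carry the suffix part that Affymetrix uses for probes matching several transcripts. Which transcripts these match was not tested, so shared signal between PGAM2 and PGAM1 cannot be told apart from shared change.

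**Figure D2:**
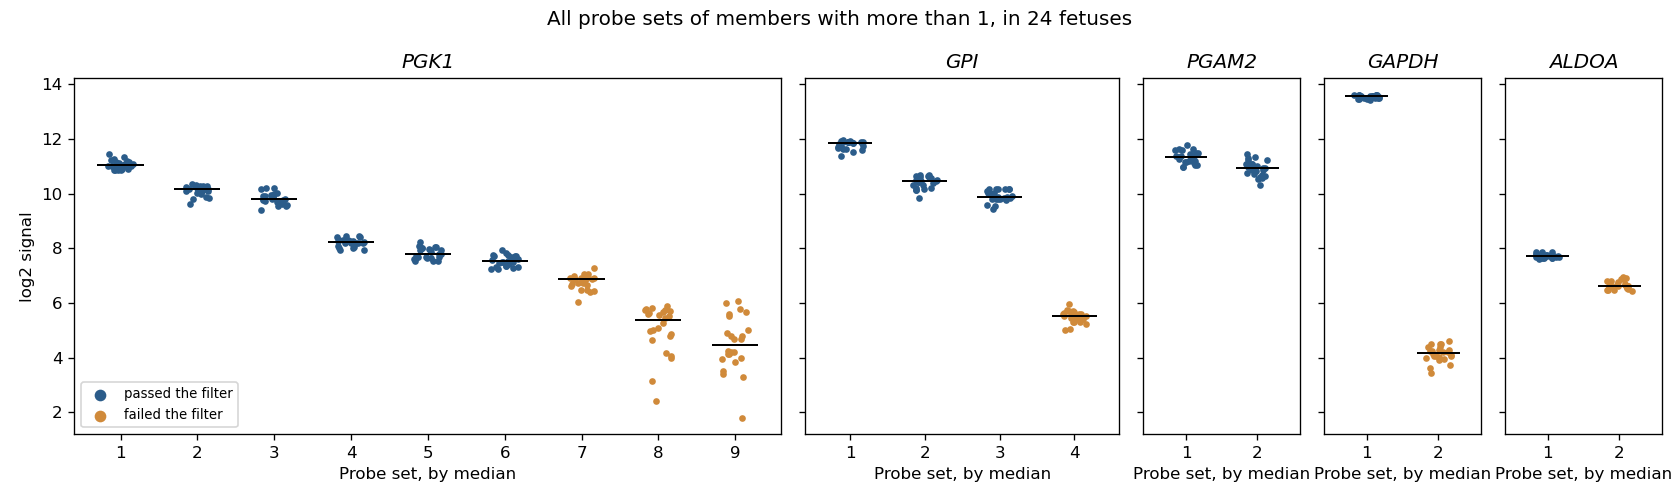
Log2 signal of every probe set of the 5 glycolytic genes that had more than 1, ordered by median within a gene, with 1 point per fetus and a bar at the median. Blue probe sets passed the filter on low values, orange ones failed it, and the 2 dimmest PGK1 probe sets had the widest spread.

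Correlations between the 10 genes over the fetuses were all positive, ALDOA having the weakest. Over the 45 pairs r ran from 0.229 (GAPDH and ALDOA) to 0.850 (PGAM2 and ENO3), with a median of 0.561. Spearman's rho ran from 0.176 to 0.873, with a median of 0.549. When the 2 fetuses most distant from the median of 1 gene of the pair were left out, all 45 were still above 0, the lowest being 0.0437. Among all pairs of the 9710 genes the median r was 0.0247, 52.25% were positive, and 8.61% exceeded the glycolytic median. A broad component was shared with many genes: the first principal component of all genes held 39.7% of their variance, and r of the glycolytic genes with it ran from 0.473 (GAPDH) to 0.737 (GPI). With that component regressed out of every gene, an alternative added after the data had been seen, 40 of the 45 pairs were positive and the median r was 0.290. With 1 gene of each pair as the measure in limma's regression on all genes, 27 of the 45 pairs had an adjusted p under 0.05, and none of these held ALDOA. A call can depend on which gene is the measure: for PGAM1 and GPI the adjusted p was 0.0576 with PGAM1 as the measure and 0.0332 with GPI. ENO3 and TPI1 had the highest mean correlation with the other 9 genes (0.690 and 0.681). ALDOA had the lowest, 0.332, and all its pairs lay between 0.229 and 0.503. Its median lay below the brightest background class, and whether its weak correlations come from a poor reading of ALDOA was not tested.

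**Figure D3:**
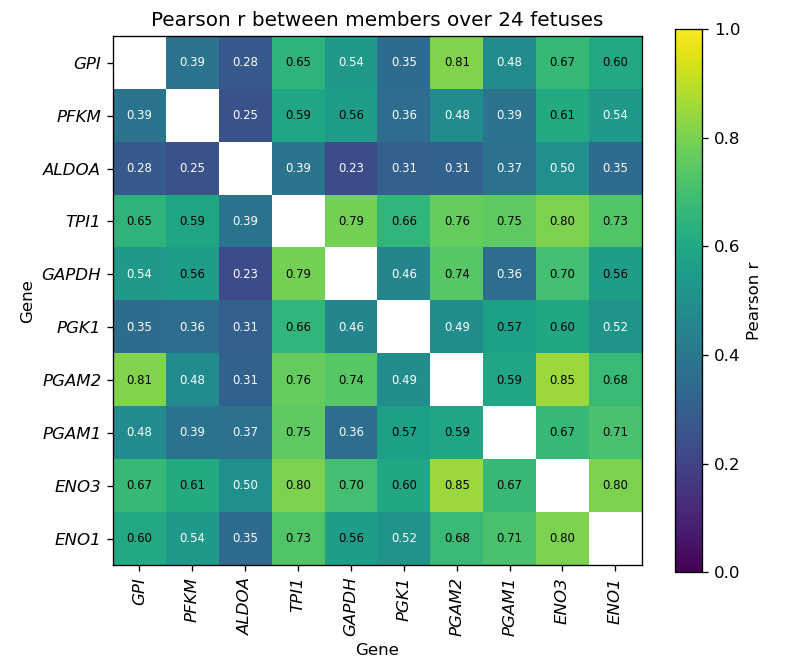
Pearson's r between the 10 glycolytic genes over 24 fetuses, with genes in pathway order on both axes and the diagonal left blank. All 45 pairs are positive, from 0.23 (GAPDH and ALDOA) to 0.85 (PGAM2 and ENO3), and the row of ALDOA holds the lowest values.

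Each gene was then used as a measure against which limma's regression was fitted for all other genes, with Benjamini-Hochberg adjustment over all of them and a threshold of 0.05 for a call. With PGAM2, 7 of the other 9 glycolytic genes were called higher, against 27.0% of all genes tested, and none was lower, against 13.3%. ENO3 followed it most closely, rising by 0.185 log2 units (SE 0.026) per SD of PGAM2 (r = 0.850, rho = 0.838, permutation p = 1e-05, r = 0.792 without the 2 farthest fetuses, adjusted p = 2.44e-05). GPI (r = 0.810, adjusted p = 0.000231), TPI1 (r = 0.763, adjusted p = 0.0004) and ENO1 (r = 0.677, adjusted p = 0.00212) came next. PFKM (r = 0.481, adjusted p = 0.0295) and PGK1 (r = 0.491, adjusted p = 0.0414) passed narrowly. The PFKM call was lost without fetus 376, and the PGK1 call without fetus 338, 283, 376 or 272. GAPDH missed the threshold with a slope of 0.040 (SE 0.017) and an adjusted p of 0.0529, although r was 0.739 with a permutation p of 2e-05. Unlike r, limma draws the residual spread of each gene towards that of the others, which widens the very small one of GAPDH. Fitted the other way, with GAPDH as the measure, PGAM2 was called (adjusted p = 0.00302). Under the stricter filter GAPDH was called with PGAM2, as were 8 of 8 genes, against 39.0% of all genes. ALDOA was not among those tested there. When ranks replaced the values GAPDH was called too, among 8 of 9, against 29.1% of all genes. In the main fit ALDOA was not called (r = 0.310, adjusted p = 0.408). With the first component regressed out, ENO3 was the only call left of the 7, against 4.23% of all genes.

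The widespread and the muscle forms were compared within each step. PGAM1 rose with PGAM2 by 0.124 log2 units (SE 0.035) per SD, with r = 0.591, rho = 0.510, permutation p = 0.00239, r = 0.418 without the 2 farthest fetuses and an adjusted p of 0.00703. This r fell to 0.238 (adjusted p = 0.474) with the first component regressed out. The enolases were closer, since ENO1 rose with ENO3 by 0.141 (SE 0.025) per SD, with r = 0.801, rho = 0.809, permutation p = 3e-05, r = 0.714 without the 2 farthest and an adjusted p of 0.00032. Neither step showed the muscle form going up as the widespread form went down. The log2 difference of PGAM2 minus PGAM1, centred on its median, ran from -0.40 in fetus 340 to 0.32 in fetus 384 with a span of 0.54, close to that of PGAM2 alone. For ENO3 minus ENO1 it ran from -0.19 in fetus 370 to 0.26 in fetus 272 with a span of 0.32, narrower than that of either gene. The 2 differences correlated weakly with each other (r = 0.405, permutation p = 0.0496, rho = 0.369, permutation p = 0.0774), and r fell to 0.285 without the 2 farthest fetuses.

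**Figure D4:**
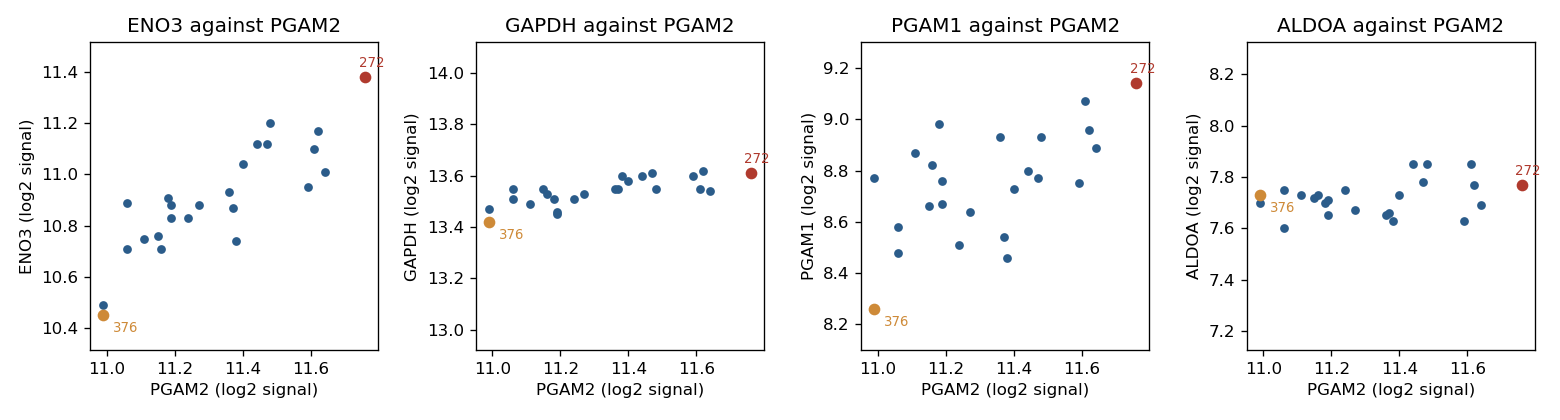
Log2 signal of ENO3, GAPDH, PGAM1 and ALDOA against that of PGAM2, with 1 point per fetus and the same height of scale in each panel (fetus 272 in red, fetus 376 in orange). ENO3 climbs with PGAM2 (r = 0.85), GAPDH climbs along a nearly flat line (r = 0.74), PGAM1 is more scattered (r = 0.59) and ALDOA shows little relation (r = 0.31).

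TPI1 as the measure gave the most calls, 8 of 9, against 29.2% of all genes. ALDOA as the measure gave 0 calls by limma among the 9, with 1 at an unadjusted p under 0.05, and 0.0% of all genes. Other measures gave 7 calls (ENO3, against 26.3%, and ENO1, against 20.2%), 5 (PGAM1, GAPDH and GPI, against 21.5%, 13.2% and 27.7%), 3 (PGK1, against 9.20%) and 2 (PFKM, against 4.37%). TPI1 and GAPDH, which act on consecutive steps and correlated at r = 0.790, also lie near each other on chromosome 5 of the assembly Sscrofa11.1, with 23 genes between them. Of these, 15 were measured, and their r with TPI1 ran from -0.0151 (ACRBP) to 0.771 (MLF2) with a median of 0.570. The highest of these, 0.771, lay close to the 0.790 of GAPDH, and whether position plays a part was not tested.

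Since GAPDH and ACTB, the cytoplasmic actin, commonly serve as reference genes, PGAM2 was also taken relative to them. ACTB ran from 13.04 to 13.41 with a span of 0.31, wider than that of GAPDH. PGAM2 minus GAPDH had a span of 0.49, PGAM2 minus ACTB 0.52 and PGAM2 minus the mean of both 0.45, against 0.56 for PGAM2 alone. The highest fetus was 272 in all 3 of these. GAPDH and ACTB were only loosely related (r = 0.391, permutation p = 0.0588, adjusted p = 0.223), as were PGAM2 and ACTB (r = 0.498, permutation p = 0.0135, adjusted p = 0.0587).

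Fibre type was read from a score, the mean of the gene-centred values of a marker list. The fast fibre score held 9 of 13 listed genes, among them MYH2, MYH4, TNNI2 and ATP2A1. With it 8 of the 10 glycolytic genes rose, all but GAPDH (adjusted p = 0.0978) and ALDOA (adjusted p = 0.258), against 22.9% of all genes. PGAM2 was closest to it (r = 0.844, rho = 0.860, permutation p = 1e-05, r = 0.842 without the 2 farthest, adjusted p = 7.24e-05), followed by ENO3 (r = 0.801, adjusted p = 0.000191) and TPI1 (r = 0.740, adjusted p = 0.00114). With the slow fibre score, of 12 measured genes with MYH7 and TNNI1 among them, limma called 0 of 10, against 0.0% of all genes, and 2 had an unadjusted p under 0.05. Here r ran from 0.0346 (ALDOA) to 0.510 (ENO1). Without fetus 376 the fast fibre call of ENO1 was lost, without fetus 272 those of ENO1 and PGAM1, with no filter that of ENO1, and with the background controls regressed out those of ENO1 and GPI. On ranks 6 of 10 were called, against 14.7% of all genes, with GAPDH among them and PGAM1, ENO1 and PGK1 lost. All 10 coefficients were positive with either score, and the 2 scores were not opposed to each other (r = 0.288, permutation p = 0.174).

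With the difference of the scores, fast minus slow, 4 of 10 were called higher, against 8.27% of all genes: PGAM2 (r = 0.567, adjusted p = 0.0357), ENO3 (r = 0.551, adjusted p = 0.0408), PGK1 (r = 0.604, adjusted p = 0.0374) and TPI1 (r = 0.567, adjusted p = 0.0426). None of the 4 calls held on ranks, without fetus 283, without fetus 376 or without fetus 272 (0 calls each). Of all genes, 0.0%, 0.0515%, 5.14% and 0.175% were called higher in these settings, in that order. The fast fibre calls fell to 1, PGAM2, against 1.07% of all genes, with the first component regressed out.

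An oxidative phosphorylation score was taken from 8 of 18 listed genes of the respiratory chain, the ATP synthase and the citrate cycle. The glycolytic genes did not run against it. Instead 6 of 10 rose with it, against 16% of all genes, namely PGAM2 (r = 0.663, adjusted p = 0.00789), PGAM1 (r = 0.711, adjusted p = 0.00435), ENO3 (r = 0.763, adjusted p = 0.00192), ENO1 (r = 0.735, adjusted p = 0.00418), TPI1 (r = 0.732, adjusted p = 0.00435) and PFKM (r = 0.518, adjusted p = 0.0387). Without fetus 376 the calls of PFKM and TPI1 were lost, and without fetus 272 that of PFKM. With the first component regressed out 5 of these remained, all but PFKM, against 9.22% of all genes. The oxidative phosphorylation and fast fibre scores were themselves correlated (r = 0.547, permutation p = 0.00579).

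**Figure D5:**
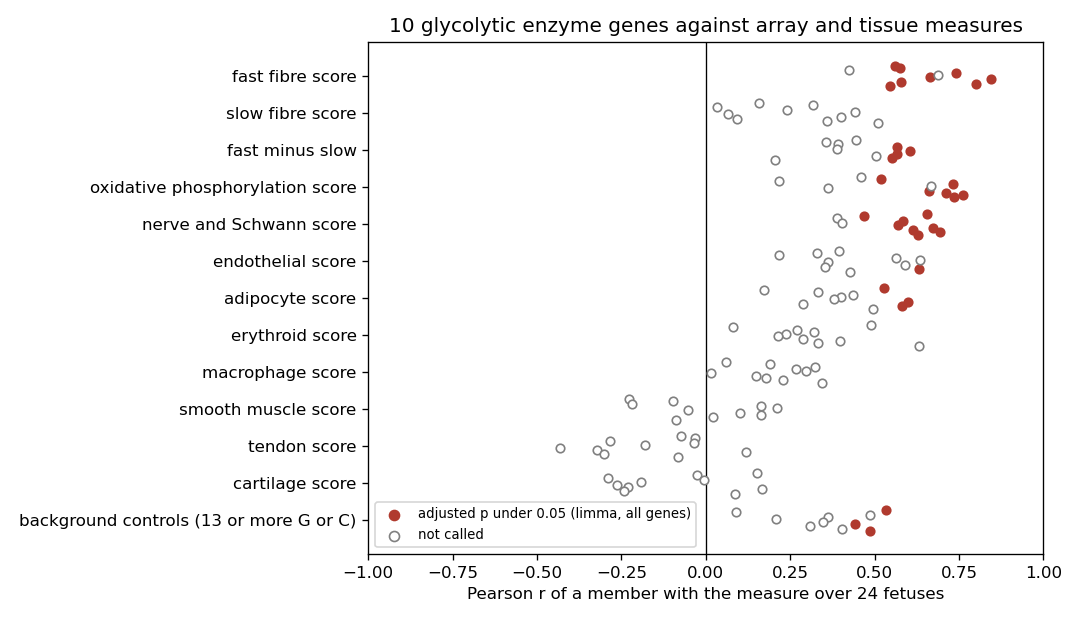
Pearson's r of the 10 glycolytic genes with 13 scores and array measures over 24 fetuses, 1 point per gene and filled where limma's adjusted p was under 0.05. By median r, points lie farthest to the right for the fast fibre, oxidative phosphorylation and nerve scores. They lie on both sides of 0 for the smooth muscle, tendon and cartilage scores, and all to the right of 0 for every other measure.

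Markers of other cell types were scored in the same way, in 8 lists and 80 relations, of which 12 were calls. The nerve and Schwann cell list had 4 of 6 genes measured (SOX10, S100B, NGFR and NCAM1) and a summed level from 11.01 to 11.40 (log2), with 1 gene above the brightest background class. With this score 8 of 10 glycolytic genes rose, against 25.8% of all genes, and the highest r was that of ENO3 (0.693, adjusted p = 0.000874). The PFKM call was lost without fetus 283, and with the first component regressed out 0 of the 8 held. It also moved with the fast fibre score (r = 0.583, permutation p = 0.00296), and its part in the fibre result was not tested. NCAM1 is made by muscle fibres too. The adipocyte list (5 of 8 genes measured, ADIPOQ, FABP4, PLIN1, PLIN4 and PPARG, 0 above the brightest background class, summed level 9.54 to 10.15) gave 3 calls, PGAM2, ENO3 and GPI, against 9.19% of all genes. The count ran from 0 (background controls or the first component regressed out, or on ranks) through 1 (no filter, or probe sets averaged, PGAM2 in both) to 5 (without fetus 376), and the call of GPI was lost without fetus 338 or fetus 272. The shares of all genes in the settings of this range were 0.0103%, 0.0103% and 2.73%, then 8.05% and 8.07%, and last 13.2%. The endothelial list (7 of 8 genes, 2 above that class, summed level 11.66 to 12.07) gave 1 call, ENO3 (adjusted p = 0.0437), against 2.05% of all genes, and this was lost without fetus 338, 283, 376 or 272, with no filter, the stricter filter or centred arrays. Other settings gave more calls, 2 with probe sets averaged or the first component regressed out, 3 with the background controls regressed out, and 8 on ranks, against 24.6% of all genes there. In the settings named before ranks the shares were 2.85%, 4.37% and 10.7%, in that order. The endothelial count therefore depended on the setting.

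The erythroid list (4 of 10 genes, HBB, HBM, HBZ and ALAS2, with 1 above that class and a summed level from 11.04 to 12.21) gave 0 calls by limma among the 10, with 3 at an unadjusted p under 0.05, against 0.0206% of all genes. ENO1 was nearest, with r = 0.631 and a permutation p of 0.00098 but an adjusted p of 0.637. The tendon list (5 of 8 genes, summed level 13.70 to 14.72) gave 0 calls by limma, with 1 at an unadjusted p under 0.05, against 2.36% of all genes. The cartilage (5 of 7 genes, 10.34 to 11.61), macrophage (3 of 8 genes, 9.20 to 9.83) and smooth muscle lists (4 of 6 genes, 13.24 to 13.59) gave 0 calls by limma, and 0 at an unadjusted p under 0.05, against 1.89%, 0.0103% and 0.0% of all genes. With tendon markers r was negative in 9 of the 10 genes, the lowest being that of PGK1 at -0.431.

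The background controls themselves differed between arrays, with a mean of the 39 controls of 13 or more G or C bases from 7.30 in fetus 338 to 7.94 in fetus 313. With this mean 3 of the 10 genes rose, PGAM2 (r = 0.441, adjusted p = 0.04995), ENO1 (r = 0.485, adjusted p = 0.0365) and GPI (r = 0.535, adjusted p = 0.025), against 20.8% of all genes. The count was 0 without fetus 338 (against 11.2% of all genes), 1 without fetus 283 or fetus 272 (against 20.3% and 19.1%), and 6 without fetus 376 (against 25.6%). With the 30 controls of fewer G or C bases limma called 0 of 10, with 7 at an unadjusted p under 0.05, against 9.66% of all genes. With the background mean regressed out of all genes the median r between glycolytic genes was 0.533, and the span of ALDOA was 0.13, against 0.19 before. ALDOA was not called with that mean (adjusted p = 0.1545), although r was 0.486 with a permutation p of 0.0162. That r fell to 0.2115 without the 2 farthest fetuses.

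A wider list of 36 other genes of glycolysis and its regulation was taken for the rest of the pathway. Of these, 11 were not matched to a probe set here (HK2, PKM, LDHA and LDHB among them), 6 were too dim, and 19 were measured. Only 2 of the 19, PGM1 and PDHA1, had a median above the brightest background class. The measured genes described below all lay under it, and their values can hold more unspecific signal. With PGAM2, 11 of the 19 were called higher (background 27.0%), 1 lower (background 13.3%) and 7 not at all, with a median r of 0.497 and a median span of 0.42. The widest span was that of FBP2, the muscle fructose bisphosphatase, which catalyses the reverse of the phosphofructokinase step. FBP2 ran from 6.14 in fetus 312 through 6.87 to 8.11 in fetus 272 with a span of 0.98, and rose with PGAM2 (r = 0.551, adjusted p = 0.00824). Its median lay close to the array medians of 6.61 to 6.73 that the filter used. GPD1, the cytosolic glycerol 3-phosphate dehydrogenase that links glycolysis to lipid synthesis, ran from 8.12 in fetus 312 through 8.56 to 9.35 in fetus 272 and was the closest to PGAM2 among the 4 of widest span (r = 0.826, adjusted p = 2.53e-05). Fetus 272 was thus at the top of both, as it was in PGAM2. PFKP, the platelet form of phosphofructokinase, rose with PGAM2 too (r = 0.497, adjusted p = 0.0273). PDK1, a mitochondrial kinase that inhibits pyruvate dehydrogenase, was the 1 gene lower with PGAM2 (r = -0.474, adjusted p = 0.0344), from 7.74 in fetus 313 through 8.19 to 8.62 in fetus 311. The narrowest were the hexokinase HK3 (span 0.20, adjusted p = 0.801) and PFKFB3, which sets the level of a phosphofructokinase activator (span 0.31, adjusted p = 0.661), and neither was called.

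For each glycolytic gene the 3 genes of highest r over the 24 fetuses were named, as a description. PGAM2 was most like CAND2, a cullin-binding protein found mainly in muscle (r = 0.934), CCDC97 (r = 0.923) and C7H6orf106 (r = 0.923). Its lowest correlations were with COL6A6, a collagen VI chain (r = -0.814), GABPA, an ETS transcription factor (r = -0.809), CBX3, a heterochromatin protein (r = -0.804), the nucleolar protein NCL (r = -0.793) and ASPN, a small proteoglycan of the matrix (r = -0.789). ENO3 was most like TLN2, a talin that ties integrins to actin (r = 0.916), TSPAN33 (r = 0.915) and DYSF, which repairs the muscle membrane (r = 0.904). GAPDH was most like GGA2, CBL and MYOM2, the last a protein of the sarcomere's M-band, all between 0.846 and 0.847. PGAM1 was most like MPI (r = 0.896), the isomerase that feeds mannose into glycolysis, SEC23B and PRDX1. ENO1 was most like the mitochondrial enzymes IDH2 (r = 0.861) and HSD17B10 (r = 0.839) and the phosphatase PPM1G.

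The other genes had nearest partners of mixed kinds. TPI1 was most like VPS53 (r = 0.903), COPS6 and UBR4, GPI like BAG6 (r = 0.921), DCTN4 and NISCH, PGK1 like SLC39A11 (r = 0.811), MTHFD1 and CTNNBIP1, and PFKM like DYNLT1 (r = 0.825), KLF1 and FZD8. ALDOA was most like NAV2 (r = 0.775), WAS and GADD45G, and these 3 did not pass the adjusted threshold (adjusted p = 0.0691). A fellow glycolytic gene was never among the 3. The number of genes with a higher r than the best glycolytic partner was 14 for ENO1 (partner ENO3), 27 for ENO3 (partner PGAM2), 35 for GAPDH (partner TPI1), 67 for PGAM2 (partner ENO3) and 83 for GPI (partner PGAM2). It lay between 107 and 250 for the other 5.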

How the data were processed

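LDM RNA of 24 fetuses was measured on Affymetrix Porcine Snowball arrays. The authors normalized the arrays by RMA in Expression Console and deposited log2 values, 1 per probe set and fetus. The submitters' processing notes name GCOS 1.1.1. RMA equalizes signal distributions, which removes differences in overall brightness. For the array design no genome build is stated in the sources used. Of 47845 probe sets, 123 were controls, 26426 had 1 symbol, 0 several and 21296 were unnamed. RefSeq synonyms (Sscrofa11.1) gave 308 probe sets a newer symbol. A probe set passed when above its array's median in at least 20 of 24 arrays, which left 9710 genes of 13755. The fit was limma 3.58.1 (R 4.3.3) on each measure scaled to 1 SD, with Benjamini-Hochberg adjustment over all genes. Permutation p-values are 2-sided and unadjusted, and treat fetuses as independent. No replicate arrays exist, and the number of arrays limits the precision. On simulated data of 9710 genes, limma called 77 of 100 genes with a slope of 1 residual SD and 100 of 100 at 2, with 11 false calls. Genes and fetuses were simulated as independent, without the shared component and the littermates of the real data. The false calls are therefore no error rate for the fits reported here. Named genes were all members, the 4 widest and 2 narrowest of the other glycolytic genes, the 3 most like each member and the 5 least like PGAM2. Members and lists were chosen with earlier results of these data known.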

Additional observations from a re-analysis of the deposited data

How the results depend on the processing

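Alternatives were no filter, a stricter filter, the mean of a gene's probe sets, centred arrays, the background regressed out, leaving out fetus 338 or fetus 283 and, for PGAM2, ranks in place of values. After the data had been seen, leaving out fetus 376 or fetus 272, regressing out the first principal component, and ranks for the scores were added. Of the values for the main comparisons, 91 kept their direction and call or stayed within 1.5 times, 19 counts or values moved further and 1 lost its call. With the first component regressed out, glycolytic genes called with PGAM2 fell from 7 to 1, with the fast fibre score from 8 to 1, with fast minus slow from 4 to 0, with the background controls from 3 to 0 and with the other cell types from 12 to 2 of 80. The share of all genes called higher fell too, from 27.0% to 4.23%, 22.9% to 1.07%, 8.27% to 0.0103% and 20.8% to 2.09% for the first 4 measures. With the nerve score it went from 25.8% to 0.0%, with the adipocyte score from 9.19% to 0.0103% and with the endothelial score from 2.05% to 4.37%. Under it the r of PGAM2 and PGAM1 was 0.238 and the median r between glycolytic genes 0.290. Ranks gave 8 calls with PGAM2 (against 29.1% of all genes), 6 with the fast fibre score (against 14.7%) and 17 of 80 with the other cell types. These 17 were 8 with the endothelial score (against 24.6%) and 9 with the nerve score (against 27.4%). Fast minus slow gave 0 calls with no filter, the background regressed out or ranks and 1 when probe sets were averaged, while leaving out a fetus gave 0 to 4. Of all genes, 0.0%, 5.54%, 0.0% and 4.12% were called higher there, in that order, and 0.0515% to 9.31% with a fetus left out. The background controls gave 0 calls when those of fewer than 13 G or C bases were used (against 9.66% of all genes). With a fetus left out they gave 0 to 6 calls, against 11.2% to 25.6% of all genes. The stricter filter left 5 cell type lists and 5 calls of 45. The cause was not tested. No paired analysis was made, because groups and replicates were taken only from the labels, which give neither weight group nor dam nor replicate number. The study's own listing by fetus number was not used. Changes near the array noise cannot be judged, since no fetus was measured again.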
